A study of Mus musculus with 6 samples.

Results

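The USP family of deubiquitinases was examined across the transcriptomes of bone marrow-derived mesenchymal stromal cells (MSCs). Members were the genes whose symbol begins with Usp and a digit and that had 10 or more reads in at least 3 libraries, which held for 45 of 56 such genes among the 23420 genes counted. The 3 libraries labelled Ctl MSC here are titled MSC only. The authors describe their control MSCs as transduced with an AP2 retroviral construct carrying eGFP alone. The 3 libraries labelled MSC-TPr came from MSCs that received the same eGFP backbone with the coding sequences of β1i (Psmb9), β2i (Psmb10) and β5t (Psmb11), the catalytic subunits of the thymoproteasome, the proteasome of cortical thymic epithelial cells. Both groups were grown from the femurs of young female C57BL/6 mice as adherent cultures, and the authors describe no step that isolates single clones of cells. Whether the libraries of a group came from separate animals or cultures is not given in the sources used here, and the p-values below measure only the spread between these libraries. Ctl MSC 2 and Ctl MSC 3 were the most alike pair, with a mean chi-square per gene between their counts of 4.76. For the other pairs of libraries it was 50.0 to 205. The spread between Ctl MSC 2 and Ctl MSC 3 may thus understate that between separate cultures, also in the fit over the libraries numbered 2 and 3.

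Ubiquitin-specific proteases (USPs) remove ubiquitin from proteins or trim ubiquitin chains, and thereby set whether a tagged protein is degraded by the proteasome, sorted at a membrane or left in place. They form the largest family of deubiquitinases, and most are cysteine proteases with the catalytic cysteine in a short conserved stretch called the Cys box. Usp18 differs in its target: it removes ISG15, a ubiquitin-like protein induced by interferon, and it also binds the type I interferon receptor and dampens its signal. Usp6nl meets the naming rule but encodes a GTPase-activating protein for Rab5 and not a protease.

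The Cys box shows what the members share and where a few of them differ. A search of the coding transcripts (GENCODE M21, mouse build GRCm38, which is mm10) found a match to a pattern for this box in 42 of 45 members. A transcript with a match was taken where a member had any. In 41 members the ninth codon of the match was a cysteine codon. The 16 codons printed below run beyond the pattern, which covered only their first part. The search pattern was widened after the members' sequences were seen, so the count describes this pattern only. The sequences below belong to members whose values are described further on, run 5′ to 3′ along the coding strand, and carry the ninth codon in capitals.
Usp18, at chr6:121253770-121253817 on the plus strand: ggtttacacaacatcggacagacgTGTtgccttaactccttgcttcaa
Usp1, at chr4:98928307-98928354 on the plus strand: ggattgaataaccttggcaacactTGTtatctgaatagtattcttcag
Usp48, at chr4:137605764-137605811 on the plus strand: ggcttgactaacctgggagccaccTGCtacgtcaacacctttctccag
Usp38, at chr8:80993216-80993263 on the minus strand: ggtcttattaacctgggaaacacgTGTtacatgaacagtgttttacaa
Usp22, at chr11:61162941-61162988 on the minus strand: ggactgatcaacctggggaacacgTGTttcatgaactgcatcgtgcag
Usp39, at chr6:72337702-72337749 on the minus strand: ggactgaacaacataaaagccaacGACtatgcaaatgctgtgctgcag
Each of these stretches lies within 1 coding exon. Usp39, a component of the spliceosome, was the 1 member with a match but without a cysteine codon. Usp53, Usp54 and Usp6nl had no match, which does not show that a catalytic cysteine is absent. These 4 genes are described together below.

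Libraries held 16158756 to 22158887 reads on genes, and 3 reads, taken as the smallest detectable amount, corresponded to 0.139 to 0.181 CPM (counts scaled to a common library size), a limit that covers counting error only. A mean log2(CPM + 0.5) over 30 cell division genes gave values of 6.57, 3.70 and 3.69 (Ctl MSC 1 to 3) against 3.70, 6.48 and 6.47 (MSC-TPr 1 to 3), so that Ctl MSC 1 and MSC-TPr 1 stood apart from the other two libraries of their label. Of the transduced genes, Psmb11 had 1 to 6 reads in MSC-TPr and 2 to 4 in Ctl MSC, Psmb9 had 0.553 to 1.24 CPM beside 0.801 to 3.38 CPM, and Psmb10 had 8.96 to 17.3 CPM beside 8.38 to 27.8 CPM. For each of them the groups overlapped, and directions below are therefore directions between library labels. The summed level of 9 markers of the labelled cell type ran from 2647 to 6334 CPM for Ctl MSC and from 1874 to 9605 CPM for MSC-TPr, highest in the 3 libraries with high cell division genes. Among them Thy1 (CD90) had 1 read in 1 library and none in the others, and Nt5e (CD73) was the 1 without overlap, with 11.3 to 20.2 CPM beside 2.66 to 5.24 CPM (log2 fold change −2.02, adjusted p = 0.0790 by edgeR and 2.04e-05 by DESeq2). The summed level of 7 haematopoietic markers lay at 0.331 to 1.33 CPM for Ctl MSC and 0.0553 to 1.11 CPM for MSC-TPr, with Cd3e at 0, and that of 4 endothelial markers was 0.785 to 3.09 CPM and 1.62 to 3.32 CPM.

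To compare members with each other, reads were divided by the annotated exon length of each gene as well as by library size (RPKM). Usp39 had the highest level per length, 59.4 RPKM on average over the 6 libraries, and its lowest library (50.7) lay above the highest library of any other member. Next came Usp5, which disassembles unanchored ubiquitin chains, at 33.5 RPKM with a range of 28.5 to 42.0. Usp1, which acts on monoubiquitinated FANCD2 and PCNA in DNA repair, averaged 31.3 RPKM with a range of 19.7 to 46.8. Usp8, an endosomal deubiquitinase of receptor sorting, averaged 29.3 RPKM and the X-linked Usp9x 26.5 RPKM. The ranges of Usp5, Usp1, Usp8 and Usp9x overlapped, so their order is not resolved. At the low end stood Usp17la, a member of the Usp17-like genes first found as cytokine-induced genes of blood cells, with 0.586 RPKM, Usp2 with 0.508 RPKM and Usp13 with 0.321 RPKM, and these ranges overlapped too. The summed level of the 45 members was 3529, 4029 and 3920 CPM (Ctl MSC 1 to 3) against 4326, 3624 and 4035 CPM (MSC-TPr 1 to 3), and the groups overlapped.

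**Figure D1:**
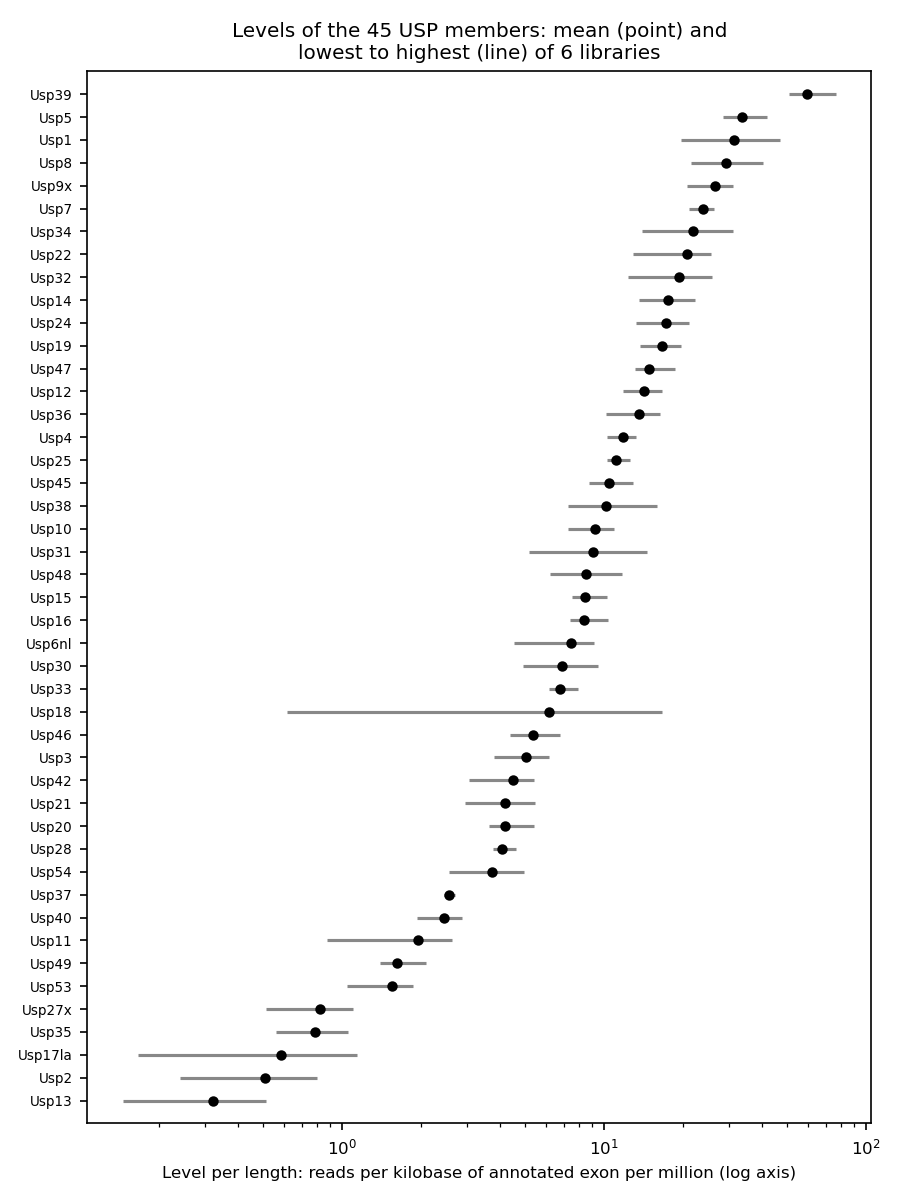
Level per length of the 45 USP members on a log axis, in RPKM, with the mean of 6 libraries as a point and the lowest to highest library as a line. Usp39 lies highest at 59.4 with no other range reaching its lowest library, and Usp18 has by far the longest line, from 0.615 to 16.6.

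The widest range over libraries belonged to Usp18, whose highest library was 27.0 times its lowest. Usp17la followed with 6.81 times, Usp13 with 3.52 times, Usp2 with 3.33 times and Usp11 with 2.997 times, none of them above 12.4 CPM in any library. Usp31 spanned 2.83 times, from 53.1 CPM in Ctl MSC 1 to 150 CPM in MSC-TPr 1. The narrowest was Usp37, a cell cycle deubiquitinase, with 1.10 times between its lowest and highest library.

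**Figure D2:**
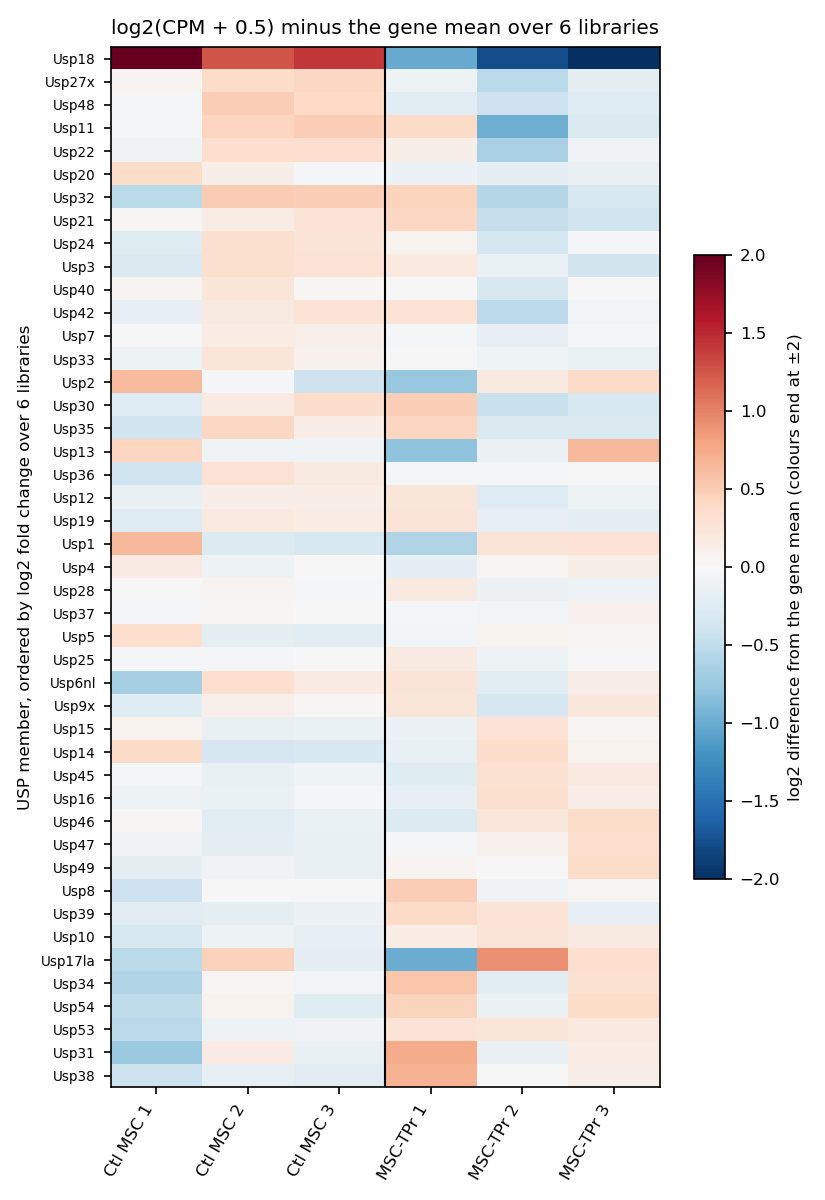
Difference of log2(CPM + 0.5) from each gene's mean over 6 libraries for the 45 USP members (rows, ordered by log2 fold change) in the 3 Ctl MSC and 3 MSC-TPr libraries (columns), with colours ending at ±2. Usp18 is the row with the strongest contrast between labels, and rows such as Usp1 and Usp32 differ instead between the libraries numbered 1 and the others of the same label.

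The comparison of MSC-TPr with Ctl MSC asks whether the RNA levels of these genes differed between the library labels. Because the transduced genes overlapped between the labels, an effect of the thymoproteasome construct was not tested. Of the 45 members, 1 passed the test over all 6 libraries: Usp18 was lower in MSC-TPr. The test was edgeR's quasi-likelihood test over all genes, and passing it took an adjusted p under 0.05 together with a difference of 0.5 or more on the log2 scale. Among all 11974 genes tested, 51 (0.426%) passed, 3 higher (0.0251%) and 48 lower (0.401%) in MSC-TPr. The median log2 fold change of the members was −0.04 (0.01 over all genes tested) and its median size was 0.21 (0.29 over all genes). Log2 fold changes were positive for 20 members and negative for 25.

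Usp18 (chromosome 6, from 121245906 to 121270917, plus strand) was counted at 767, 427 and 465 reads (Ctl MSC 1 to 3) against 79, 40 and 37 reads (MSC-TPr 1 to 3). In CPM this gave 46.3, 22.8 and 25.6 in Ctl MSC and 4.37, 2.36 and 1.72 in MSC-TPr. Every MSC-TPr library lay below every Ctl MSC library, and Ctl MSC 1 was the highest and MSC-TPr 3 the lowest. The means were 31.6 ± 12.8 CPM and 2.82 ± 1.39 CPM (SD, n = 3 each), with a log2 fold change of −3.49 (SE 0.47) and an adjusted p of 0.0485 by edgeR. DESeq2 gave a log2 fold change of −3.47 and an adjusted p of 6.48e-11. The edgeR adjusted p lay close to the threshold and exceeded 0.05 without Ctl MSC 2 (0.129), Ctl MSC 3 (0.136), MSC-TPr 2 (0.266) or MSC-TPr 3 (0.212), while the log2 fold change stayed between −3.95 and −3.10 whichever library was left out. In such bulk RNA, fewer cells with Usp18 transcripts and fewer transcripts per cell cannot be told apart. An annotated transcript on the opposite strand (Gm44148) shares 4.44% of the exon length of Usp18.

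Most genes around Usp18 in the ISG15 system were also at lower levels in the MSC-TPr libraries, but none of the 9 passed the test over 6 libraries (adjusted p from 0.0722 upwards by edgeR, with 7 lower at an unadjusted p under 0.05). Groups did not overlap, with MSC-TPr lower, for 7 of the 9, where 12.0% of all genes tested did so. The list was chosen with earlier results of these data known, so its shares here and further on are descriptions only. Isg15, the modifier that Usp18 removes, had 106, 31.4 and 35.1 CPM (Ctl MSC 1 to 3) against 5.48, 6.03 and 4.64 CPM (MSC-TPr 1 to 3), a log2 fold change of −3.41 (SE 0.53, adjusted p = 0.0722 by edgeR). Uba7, the activating enzyme for ISG15, had 7.43, 4.54 and 3.42 CPM against 0.719, 0.650 and 1.62 CPM. Like Usp18, both were highest in Ctl MSC 1 and separated the labels. Ube2l6, the conjugating enzyme for ISG15, had 17.8, 3.79 and 4.08 CPM against 3.43, 6.03 and 7.33 CPM, so its groups overlapped. Herc6, a ligase for ISG15 in mice, did not overlap between groups (log2 fold change −1.13, SE 0.43). The interferon signalling factors Stat2 and Irf9 had log2 fold changes of −1.57 and −1.29 and no overlap. Ifnar2, the receptor subunit that Usp18 binds, had 30.8, 34.2 and 37.8 CPM against 40.1, 30.6 and 31.8 CPM, with overlapping groups, and Ifnar1 had a log2 fold change of −0.50. DESeq2 called 5 of the 9 lower, among them Isg15, Uba7, Stat2 and Irf9, where it called 5.28% of all genes, 1.89% higher and 3.39% lower in MSC-TPr.

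**Figure D3:**
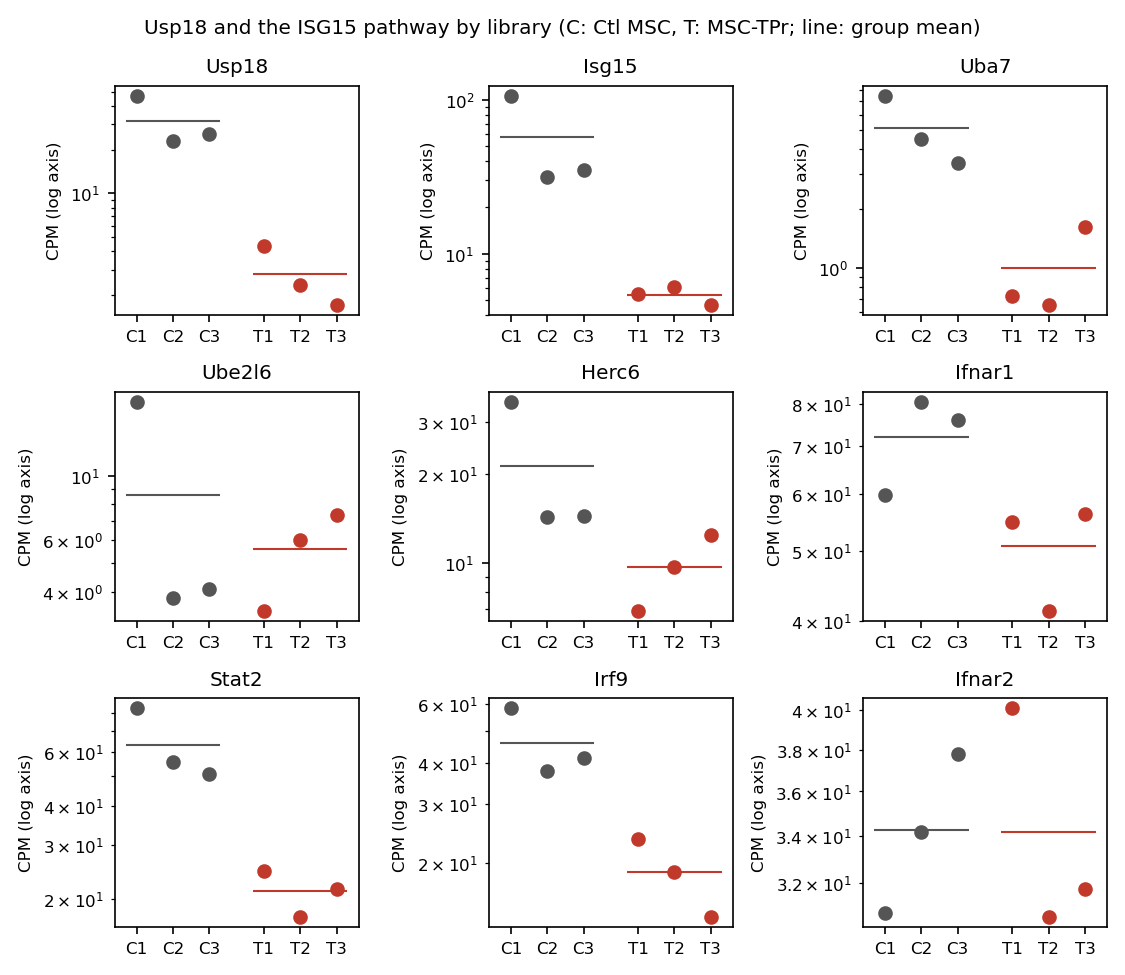
CPM on a log axis of Usp18 and 8 genes of the ISG15 system in each Ctl MSC (C1 to C3) and MSC-TPr (T1 to T3) library, with lines at the group means. The 3 MSC-TPr points lie below the 3 Ctl MSC points for Usp18, Isg15, Uba7, Herc6, Ifnar1, Stat2 and Irf9, and overlap them for Ube2l6 and Ifnar2.

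Beyond Usp18, groups did not overlap for 10 further members, giving 11 of 45 (24.4%) where 22.6% of all genes tested did so (10.6% higher and 12.0% lower in MSC-TPr). None of these 10 passed the test over 6 libraries. Of the 11, 5 were higher in every MSC-TPr library and 6 were lower.

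On the lower side, Usp48, a nuclear deubiquitinase known to act on RelA with the COP9 signalosome, had 78.7, 113 and 106 CPM (Ctl MSC 1 to 3) against 69.1, 60.1 and 67.0 CPM (MSC-TPr 1 to 3). Its log2 fold change was −0.60 (SE 0.18, adjusted p = 0.215 by edgeR). Usp27x, which can replace Usp22 in complexes that remove ubiquitin from histone H2B, had 3.56, 4.54 and 4.69 CPM against 3.15, 2.19 and 2.92 CPM, with a log2 fold change of −0.63 (SE 0.27). In both genes Ctl MSC 1 lay closest to the MSC-TPr libraries. Usp20, known for recycling of receptors and for stabilising HIF1A, had 48.5, 40.6 and 36.6 CPM against 34.3, 32.9 and 33.6 CPM (log2 fold change −0.32, SE 0.16). Usp40 (30.0, 34.2 and 29.5 against 29.2, 22.9 and 28.9 CPM) and Usp7, the deubiquitinase of Mdm2 and p53 (185, 204 and 197 against 178, 164 and 178 CPM), differed by less, with log2 fold changes of −0.21 and −0.17. The nearest libraries of Usp40 were within 1 CPM of each other.

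On the higher side, Usp38, known to act on the innate immune kinase TBK1, had 41.7, 50.0 and 48.6 CPM (Ctl MSC 1 to 3) against 91.4, 56.3 and 61.5 CPM (MSC-TPr 1 to 3). Its log2 fold change of 0.58 (SE 0.22, adjusted p = 0.296 by edgeR) was the largest positive value among the members, with MSC-TPr 1 the highest library. Exons of an antisense gene (Gm9725) share 20.5% of the exon length of Usp38. Usp53, linked to tight junctions, had 13.1, 17.8 and 18.3 CPM against 23.4, 22.7 and 22.0 CPM, with a log2 fold change of 0.47 (SE 0.20). Usp10, the partner of the stress granule protein G3bp1, had 69.7, 81.6 and 78.3 CPM against 96.8, 104 and 98.6 CPM, with a log2 fold change of 0.38 (SE 0.14, adjusted p = 0.265 by edgeR). The MSC-TPr libraries of Usp53 and Usp10 lay close together, at SDs of 0.665 and 3.95 CPM. Usp47, known for base excision repair and β-TrCP binding, had 193, 180 and 183 CPM against 200.1, 216 and 255 CPM (log2 fold change 0.27, SE 0.15). Usp49, a histone H2B deubiquitinase, had 12.0, 13.1 and 12.4 CPM against 14.3, 13.8 and 17.9 CPM, but 51.2% of its exon length is shared on the same strand with the annotated gene Gm20517, so its counts are uncertain.

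**Figure D4:**
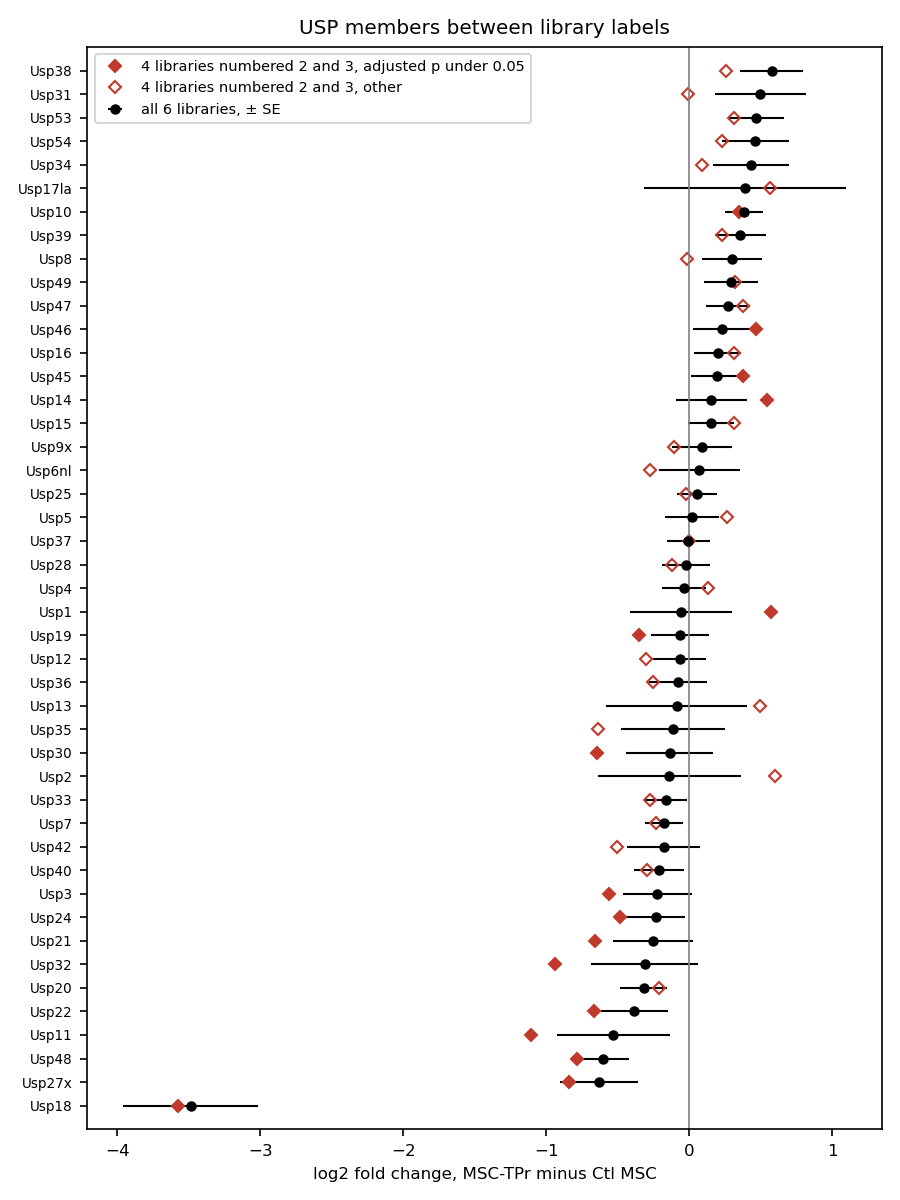
Log2 fold change of MSC-TPr against Ctl MSC for the 45 USP members, from all 6 libraries (black points with SE) and from the 4 libraries numbered 2 and 3 (diamonds, filled at an adjusted p under 0.05 by edgeR). Usp18 lies near −3.5 in both and every other member lies between −0.63 and 0.58 over 6 libraries.

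Grouped by role, 8 members that act on histones or chromatin had log2 fold changes of −0.63 to 0.29 (median −0.20, 2 positive and 6 negative), and none passed the test over 6 libraries. The 5 members of DNA repair and the cell cycle ranged from −0.17 to 0.19 (median −0.02), the 5 that work at the proteasome, on free chains or in endoplasmic reticulum-associated degradation from −0.09 to 0.16 (median 0.02), and the 6 of endosomes, mitochondria and membrane traffic from −0.32 to 0.38 (median −0.15), again with none passing. Among 16 members of signalling pathways the median was −0.05 and Usp18 was the 1 that passed. The 4 members without the cysteine codon match, Usp39, Usp53, Usp54 and Usp6nl, all had positive log2 fold changes (median 0.41), and none passed. A missing match does not show that a member is inactive. The value of Usp6nl, 0.07 over 6 libraries, turned to −0.27 over the 4 libraries numbered 2 and 3. Usp39 had 124, 126 and 131 CPM (Ctl MSC 1 to 3) against 187, 174 and 128 CPM (MSC-TPr 1 to 3), so MSC-TPr 3 lay inside the Ctl MSC range. Usp54 had 23.1, 34.7 and 27.8 CPM against 44.99, 30.5 and 42.6 CPM, with MSC-TPr 2 inside the Ctl MSC range. Usp17la, the Usp17-like member, had 0.785, 2.08 and 1.16 CPM against 0.443, 3.02 and 1.85 CPM, and its log2 fold change of 0.39 had an SE of 0.70.

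Several members followed the libraries rather than the labels. Usp1 had 175, 92.5 and 89.5 CPM (Ctl MSC 1 to 3) against 73.4, 134 and 136 CPM (MSC-TPr 1 to 3), high in the 3 libraries where the cell division genes were also high. Its log2 fold change over 6 libraries was −0.05 (SE 0.36). Usp14, a proteasome-bound deubiquitinase, had 186, 114 and 114 CPM against 129, 182 and 150 CPM, with the same libraries on top, and exons of Thoc1 on the opposite strand share 26.0% of its exon length. The opposite order held for Usp32, a deubiquitinase of Golgi and endosomal membranes, with 96.7, 199 and 197 CPM against 191, 94.5 and 112 CPM. Usp30, which sits in the outer mitochondrial membrane and opposes Parkin, had 33.7, 45.8 and 52.0 CPM against 57.2, 29.7 and 32.7 CPM. Usp32 and Usp30 were thus lowest in the 3 libraries with high cell division genes. A fit with the level of the cell division genes as a covariate is given further on.

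**Figure D5:**
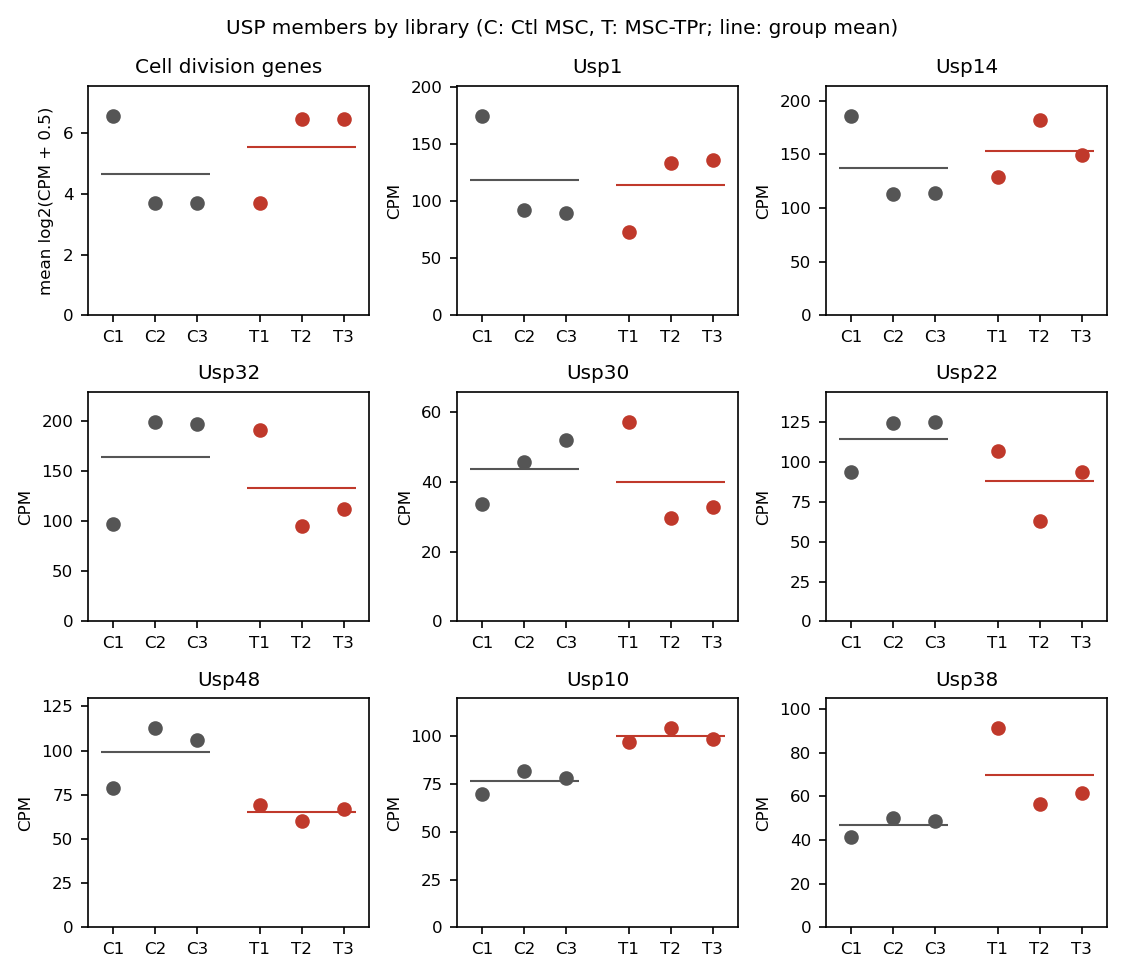
Mean log2(CPM + 0.5) of 30 cell division genes (upper left) and CPM of 8 USP members in each Ctl MSC (C1 to C3) and MSC-TPr (T1 to T3) library, all axes starting at 0 and lines at group means. Usp1 and Usp14 are highest in C1, T2 and T3 like the cell division genes, Usp32 is lowest there, and Usp48, Usp10 and Usp38 separate the labels.

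The comparison was repeated on the 4 libraries numbered 2 and 3, without Ctl MSC 1 and MSC-TPr 1. In these, cell division genes averaged 3.70 and 3.69 for Ctl MSC but 6.48 and 6.47 for MSC-TPr on the log2 scale, so the label and the cell division level cannot be told apart. By edgeR, 11 of 45 members (24.4%) passed where 40.0% of 12122 genes did (20.6% higher and 19.4% lower in MSC-TPr), and the median size of the log2 fold change was 0.32 for the members and 0.47 over all genes. Usp1 (log2 fold change 0.57, SE 0.11, adjusted p = 0.0079) and Usp14 (0.55, SE 0.13, adjusted p = 0.0195) were higher in MSC-TPr. Lower were Usp18 (−3.58, adjusted p = 0.000176), Usp11 (−1.11, adjusted p = 0.0167), Usp32 (−0.93, adjusted p = 0.00277), Usp27x (−0.84, adjusted p = 0.0299), Usp48 (−0.78, adjusted p = 0.00387), Usp22 (−0.67, adjusted p = 0.0349), Usp21 (−0.66, adjusted p = 0.0108), Usp30 (−0.64, adjusted p = 0.0103) and Usp3 (−0.56, adjusted p = 0.0174). Chromatin members made up 4 of these 9, namely Usp22, the H2B deubiquitinase of the SAGA complex, its relative Usp27x, and the H2A deubiquitinases Usp3 and Usp21. They were 4 of 8 chromatin members (50%), where 40.0% of all genes passed and 19.4% were lower. With the cell division covariate described below, 0 of the 8 passed. The median log2 fold change of the 8 was −0.53 over the 4 libraries and −0.04 with that covariate. Of these 4, Usp22, Usp21 and Usp3 overlapped between the labels over 6 libraries. Usp22 had 93.9, 125 and 125 CPM (Ctl MSC 1 to 3) against 107, 63.1 and 93.9 CPM (MSC-TPr 1 to 3). Usp21 had 19.7, 21.6 and 23.7 CPM against 25.9, 14.0 and 14.7 CPM, with MSC-TPr 1 the highest library. Usp11, a relative of Usp4 and Usp15 in TGF-β signalling, had 8.39, 11.8 and 12.4 CPM against 11.5, 4.14 and 6.95 CPM, with MSC-TPr 1 inside the Ctl MSC range. Of the 9 genes of the ISG15 system, 6 were lower over these 4 libraries (19.4% of all genes were) and Ube2l6 was higher (0.77, adjusted p = 0.0248).

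With the mean of the cell division genes as a covariate over all 6 libraries, 5 of 45 members (11.1%) passed, where 12.0% of all genes did (4.69% higher and 7.31% lower in MSC-TPr). The covariate was 6.47 to 6.57 in Ctl MSC 1, MSC-TPr 2 and MSC-TPr 3, and 3.69 to 3.70 in the others. At the high level Ctl MSC 1 was the only library of its label, and at the low level MSC-TPr 1 was. The close pair Ctl MSC 2 and Ctl MSC 3 also enters the spread of this fit, so its p-values may be too small. Usp18 had nearly the same log2 fold change as without the covariate (−3.51, SE 0.41, adjusted p = 0.00239 by edgeR). Usp31 (0.74, SE 0.14, adjusted p = 0.0181), Usp38 (0.69, SE 0.13, adjusted p = 0.0177), Usp34 (0.61, SE 0.16, adjusted p = 0.0484) and Usp53 (0.56, SE 0.15, adjusted p = 0.0469) were higher in MSC-TPr. Over the 4 libraries numbered 2 and 3, which differ in the cell division genes, none of these 4 passed, with log2 fold changes of −0.0044 (Usp31), 0.26 (Usp38), 0.0896 (Usp34) and 0.31 (Usp53). Usp31 and Usp34, a deubiquitinase of Axin in Wnt signalling, overlapped between the labels before this term was added. Usp34 had 257, 398 and 376 CPM (Ctl MSC 1 to 3) against 573, 336 and 485 CPM (MSC-TPr 1 to 3), and 11.6% of its exon length is shared with Ahsa2 on the opposite strand. The 9 members named above for the 4 libraries other than Usp18 and Usp48 had an adjusted p of 0.0796 or more with the covariate, and Usp48 had an adjusted p of 0.0484 at a log2 fold change of −0.49. Of the 9 genes of the ISG15 system, 6 (66.7%) were lower with this covariate, where 7.31% of all genes were.

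Genes of USP partner proteins and their relatives were examined beside them. Of 14 partner genes, none passed the test over 6 libraries with edgeR or DESeq2, none had an unadjusted p under 0.05 (15.0% of all genes did), and Atxn7l2, a relative of the SAGA subunit Atxn7, was the 1 without overlap (log2 fold change −0.50, SE 0.24), beside 22.6% of all genes. Over the 4 libraries numbered 2 and 3, 3 of the 14 passed, 1 higher and 2 lower, where 40.0% of all genes did. With the covariate 1 passed, Stam2, a partner of Usp8 on endosomes (0.52, adjusted p = 0.0322 by edgeR), where 12.0% of all genes did. Wdr48, the activator of Usp1, Usp12 and Usp46, had a log2 fold change of −0.14 (SE 0.19), and G3bp1, the partner of Usp10, 0.34 (SE 0.24).

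A list of deubiquitinases of the other families was compared in the same way. It also held genes that are not known as deubiquitinases, such as Pan2 and Uspl1, so its counts do not cover deubiquitinases only. Of 35 tested, none passed with edgeR over 6 libraries, while 4 higher and 2 lower had an unadjusted p under 0.05 (15.0% of all genes did). DESeq2 called 4 of 38 (10.5%), beside 5.28% of all genes. These were Otud4 (adjusted p = 0.00713 by DESeq2), Uchl1 (0.0285) and Psmd14 (0.0365), higher in MSC-TPr, and Fam63a (0.0381), lower. Of the 38, Uchl4, Otud6a and Otud7a had no adjusted p by DESeq2, so the 10.5% and the 5.28% have unlike bases. Groups did not overlap for 9 of 35 (25.7%), beside 24.4% of USP members and 22.6% of all genes. Psmd14, the deubiquitinase of the proteasome lid, had 199, 164 and 163 CPM (Ctl MSC 1 to 3) against 263, 319 and 243 CPM (MSC-TPr 1 to 3) (log2 fold change 0.65, SE 0.17, adjusted p = 0.183 by edgeR). Uchl1, a neuronal ubiquitin hydrolase, had 3.50, 2.13 and 1.76 CPM against 3.54, 12.1 and 9.04 CPM, so Ctl MSC 1 and MSC-TPr 1 were nearly level. The log2 fold changes of the remaining 7 were 0.59 (Otud4), 0.50 (Otub2), 0.45 (Brcc3), 0.42 (Fam188a), −0.45 (Mysm1), −0.66 (Pan2) and −0.96 (Fam63a). The proteasome-bound Usp14 overlapped between labels, unlike Psmd14, and this difference was not tested.

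The remaining 11 genes matching the naming rule stayed below the count minimum. Usp26, Usp29, Usp43 and the Y-linked Usp9y had no reads in any library, and Usp50, Usp51 and Usp17ld had at most 1 read in a library. Usp44, Usp17lc and Usp17le had at most 3, 2 and 7 reads. Usp17lb reached 23 reads in MSC-TPr 2 and at most 8 elsewhere, and because Usp17-like genes are close copies, reads may be split or lost between them and Usp17la.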

How the data were processed

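RNA-seq of polyadenylated RNA from 6 libraries (KAPA stranded kit) was analysed, 3 labelled Ctl MSC and 3 labelled MSC-TPr, each as 1 replicate. The authors aligned paired reads to mm10 and counted them per gene with Htseq-count. The submitters' processing notes name CASAVA 1.8.2, Trimmomatic 0.35 and TopHat2 2.1.0. The deposited values are raw counts without normalization, and whether counting used the strand is not given in the sources used here, so overlapping genes on opposite strands may share reads. Rows that name no gene were left out, and 79.2% to 86.2% of listed reads were on genes.

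The members and gene lists were chosen with earlier results of these data known. Counts were fitted in R 4.3.3 with edgeR 4.0.16 (TMM, filterByExpr, quasi-likelihood test, group only), with Benjamini-Hochberg adjustment over all genes tested. Genes passed with an adjusted p under 0.05 if the log2 difference was also 0.5 or more in size. SE is the fold change divided by the square root of F. CPM uses TMM-scaled totals, and RPKM divides it by the union of annotated exons, which can exceed the expressed transcript. DESeq2 1.42.0, RLE and upper quartile scaling, other filters, a replicate block, each library left out, the 4 libraries numbered 2 and 3 and a cell division covariate were alternatives. Both libraries numbered 1 were left out together because earlier results had set them apart. Both tools were checked on simulated counts.

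Described with values were Usp18, members that passed over 6 libraries or over those 4 (at most 8 per direction), members without overlap (at most 6 per direction), the 5 highest and 3 lowest per length, the 5 widest ranges, and up to 5 genes per further list. Usp3, Usp8, Usp34, Usp37, Wdr48, G3bp1, Stam2, Nt5e, Thy1, 4 other deubiquitinases beyond the first 5 and the remaining genes of the ISG15 list were named after their values were seen. Some genes of these lists are not reported here.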

Additional observations from a re-analysis of the deposited data

How the results depend on the processing

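The 1 USP member that passed over 6 libraries was lost with at least 10 counts in every library (0 passing, Usp18 at an adjusted p of 0.0604) and with the replicate block (0, adjusted p = 0.243), and 11 passed over the 4 libraries numbered 2 and 3 and 5 with the cell division covariate. Leaving out each library in turn gave 0 to 1 members. Over all genes, where 51 passed, the same settings gave 31, 0, 4854 and 1436, DESeq2 gave 683, and leaving out each library gave 0 to 108. From the list of other deubiquitinases, with 0 passing, 4 passed with DESeq2, 13 over the 4 libraries and 6 with the covariate. RLE and upper quartile scaling, no low-count filter and no fold change threshold kept these counts within 1.5 times. The median log2 fold change of the members stayed between −0.08 and 0.04. Of 26 members tested by setting, log2 fold changes turned sign over the 4 libraries for Usp1 (0.57), Usp2 (0.60), Usp13 (0.50), Usp8 (−0.015), Usp9x (−0.10) and Usp31 (−0.0044), with the covariate for Usp32 (0.0058), Usp30 (0.0505) and Usp5 (−0.0619), and with upper quartile scaling for Usp5 (−0.0275). Leaving out single libraries turned the sign for Usp1 (−0.22 to 0.33), Usp30 (−0.49 to 0.0417), Usp5 (−0.0785 to 0.23), Usp9x (−0.0119 to 0.26), Usp17la (−0.21 to 0.86), Usp2 (−0.42 to 0.28) and Usp13 (−0.65 to 0.25). None of these passed the test over 6 libraries, and the cause was not tested. Libraries with the same number deviated from their group means with correlations of −0.775, −0.621 and −0.619, so the replicate numbers were not taken to pair the libraries, and the block left 0 genes passing.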
